A study of Mus musculus with 16 samples.

Results

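The genes described here encode the subunits of the mitochondrial respiratory chain and ATP synthase that are made from nuclear DNA. They were chosen by name: every gene whose symbol on the array platform begins with Nduf, Uqcr, Atp5, Cox4, Cox5, Cox6, Cox7 or Cox8, with Sdha, Sdhb, Sdhc, Sdhd, Cyc1 and Cycs added. The rule itself uses no measured value. Of 95 names that met the rule, 91 had a probe set of their own and were measured, out of 19937 genes in all. Cox7c, Ndufb4, Ndufb4b and Ndufs5-ps were represented here by probe sets shared between several genes and were not analysed here. Each gene was read from the probe set with the highest mean over the 16 arrays, which was the sole one for 73 members and one of several for 18.

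The respiratory chain passes electrons from NADH (complex I) and succinate (complex II) through ubiquinone to complex III, then by the small haem protein cytochrome c to complex IV, which reduces oxygen. Complexes I, III and IV pump protons, and ATP synthase (complex V) uses the proton gradient to make ATP. In macrophages, lipopolysaccharide (LPS, a bacterial cell wall component sensed by TLR4) is known to shift metabolism towards glycolysis and to change how mitochondria use electrons, with complex I and succinate dehydrogenase (complex II) as sources of reactive oxygen species. NFAT5 is a transcription factor known for the response to osmotic stress and for a part in the response of macrophages to Toll-like receptor ligands.

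Total RNA from mouse bone-marrow derived macrophages on the 129sv background was hybridised to 16 single-colour arrays in 4 groups of 4: wild-type cells without stimulation, wild-type cells with LPS, NFAT5 KO cells without stimulation and NFAT5 KO cells with LPS. The sources used here give neither the LPS dose nor the time of stimulation, and they do not say how the NFAT5 allele was made. The titles number the arrays of each group 1 to 4, and nothing says whether these came from separate animals or cultures, so p-values reflect sample-to-sample spread that may be purely technical. Values are log2 levels after RMA (background correction, quantile normalization and summary of the probes of a set). A change was called where limma's moderated test gave a Benjamini-Hochberg adjusted p below 0.05 over all 19937 genes, and ± after a change is its standard error.

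The arrays had medians between 6.76 and 6.86. The mean of 8 macrophage markers lay between 12.02 and 12.40 in every array, while the means of the marker lists of T, B and NK cells, granulocytes, dendritic cells, mast cells and erythroid cells lay between 4.92 and 6.63 and that of stroma, of which 1 marker rose with LPS, between 6.89 and 7.95. Nfat5 itself was at 9.15, 9.41, 9.34 and 9.67 in unstimulated wild-type arrays 1 to 4 and 9.95, 10.57, 9.97 and 9.80 with LPS, and at 8.93, 9.03, 9.20 and 8.99 and 9.29, 9.29, 9.12 and 8.67 in KO arrays. Its levels were therefore lower in KO than in wild type with LPS without overlap, while without LPS the groups overlapped; the labels do not say which part of the gene was altered, so this probe set is a partial check. Xist lay above the Y-linked Kdm5d in 10 arrays (all 8 of wild type and number 4 of KO in both treatments) and below it in 6 of the 8 KO arrays, so genotype and the sex of the cells largely coincide and cannot be told apart in the comparisons of genotypes. The comparisons of LPS within a genotype are free of this. In whole-culture RNA, fewer cells of a kind and less RNA per cell cannot be told apart.

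The members comprised 6 core and 28 accessory subunits of complex I, 7 assembly factors of complex I that share the name stem (Ndufaf1 to Ndufaf7), the 4 subunits of complex II, 9 members of complex III, cytochrome c (Cycs), 10 widely expressed members of complex IV, 7 tissue isoforms of complex IV, 17 subunits of complex V and 2 genes with related names, Cox7a2l and Ndufa4l2. Ndufa4 was counted with complex IV, where its product is known to reside despite its name. Member probe sets had means between 4.65 and 12.31 over the 16 arrays, and since a probe set's signal depends on its probes, levels were not compared between genes.

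The promoters of 5 members whose levels changed with LPS are shown because these genes responded in opposite directions: Cycs, Ndufs4 and Cox5a rose, and Ndufs7 and Ndufb5 fell. They are RefSeq sequences of build GRCm38.p6, given 5′ to 3′ on the strand of the gene, and cover the 250 bases before the annotated start. Capitals mark exact matches to the motif letters listed after them. The shorter runs are 30-base stretches just after the start of Ndufs4 and Ndufs7, around the letters of the YY1 motif.
Cycs, chr6:50566570-50566819, minus strand: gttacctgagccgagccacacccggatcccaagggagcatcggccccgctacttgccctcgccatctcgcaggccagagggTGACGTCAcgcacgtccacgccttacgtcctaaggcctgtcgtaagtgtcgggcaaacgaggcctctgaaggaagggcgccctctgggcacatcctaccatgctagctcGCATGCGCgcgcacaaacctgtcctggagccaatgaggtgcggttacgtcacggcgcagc
Ndufs4, chr13:114388095-114388344, minus strand: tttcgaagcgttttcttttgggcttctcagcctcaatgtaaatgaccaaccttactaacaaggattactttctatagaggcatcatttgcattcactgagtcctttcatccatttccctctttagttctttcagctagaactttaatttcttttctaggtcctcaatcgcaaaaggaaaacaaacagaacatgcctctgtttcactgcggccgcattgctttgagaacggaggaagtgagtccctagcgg
Ndufs4, chr13:114388045-114388074, minus strand: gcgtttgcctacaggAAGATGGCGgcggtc
Cox5a, chr9:57520982-57521231, plus strand: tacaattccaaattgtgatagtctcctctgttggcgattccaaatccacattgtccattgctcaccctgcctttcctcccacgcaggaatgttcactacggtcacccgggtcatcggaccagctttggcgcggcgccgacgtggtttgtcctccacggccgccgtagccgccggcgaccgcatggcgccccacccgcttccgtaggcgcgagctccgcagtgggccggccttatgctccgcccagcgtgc
Ndufs7, chr10:80249199-80249448, plus strand: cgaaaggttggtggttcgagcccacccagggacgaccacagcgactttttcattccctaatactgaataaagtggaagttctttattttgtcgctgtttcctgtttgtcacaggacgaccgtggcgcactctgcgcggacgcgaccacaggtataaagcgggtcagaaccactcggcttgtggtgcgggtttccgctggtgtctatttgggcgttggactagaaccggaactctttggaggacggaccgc
Ndufs7, chr10:80249463-80249492, plus strand: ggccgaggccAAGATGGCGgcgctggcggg
Ndufb5, chr3:32736813-32737062, plus strand: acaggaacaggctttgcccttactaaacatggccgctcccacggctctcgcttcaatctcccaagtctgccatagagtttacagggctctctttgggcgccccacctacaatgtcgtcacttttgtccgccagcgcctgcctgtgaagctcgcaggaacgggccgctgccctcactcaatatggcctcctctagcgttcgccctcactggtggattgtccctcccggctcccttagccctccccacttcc

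Promoter windows from 250 bases before to 50 after the start were found for 74 of the 91 members, 79 windows in all, and 5 motifs of factors known to act on respiratory genes were searched on both strands. The NRF1 letters GCATGCGC stood in 13 of 79 member windows (16.5%), against 2.71% of all 32851 windows and 3.52% of the 21263 windows of coding genes. The ETS letters CCGGAAG (the motif that GABP reads) stood in 18 (22.8%), against 8.86% and 11.6%. The YY1 letters AAGATGGCG stood in 7 (8.86%), against 1.4% and 1.83%. The CRE letters TGACGTCA stood in 5 (6.33%), against 1.79% and 2.23%, and the ERR letters TCAAGGTCA in 2 (2.53%), against 0.423% and 0.334%. Among the 5 genes shown, Cycs held the CRE letters from position -169 and the NRF1 letters from position -60 relative to the start, Ndufs4 held the YY1 letters from position 36 and Ndufs7 from position 25. The rising Ndufs4 and the falling Ndufs7 thus shared the YY1 letters, and none of the 5 motifs' letters were in the windows of the rising Cox5a or the falling Ndufb5.

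In wild-type macrophages LPS lowered more respiratory chain genes than it raised: 16 of 91 members fell and 4 rose, against a background over all genes of 16.8% called lower and 14% called higher. Of the 34 complex I subunits 10 fell and 1 rose, and Sdha and Sdhb of complex II, Uqcrh of complex III and Atp5g2 of complex V fell too. The 4 genes that rose were Cycs (2.01-fold), the complex I subunit Ndufs4, the complex IV subunit Cox5a and the ATP synthase subunit Atp5b. The median member changed by -0.10, while the median over all genes was 0.06, and 30 of 91 members (33%) lay above 0, against 60.6% of all genes. The share of members called lower, 16 of 91, is close to the share over all genes, and the share called higher is below it.

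Cytochrome c carries electrons from complex III to complex IV and, when released into the cytosol, triggers apoptosis. Cycs was at 10.78, 10.73, 10.56 and 11.27 in unstimulated wild-type arrays 1 to 4 and at 11.79, 11.92, 11.53 and 12.11 with LPS. Every LPS array was above every unstimulated array, and number 4 was the highest in both groups. The log2 change was 1.004 ± 0.172 (adjusted p = 0.000139), the largest rise among the 91 members. Cycs has 3 probe sets, and the other two moved the same way, by 1.32 (adjusted p = 4.31e-06 over all probe sets) and 0.62 (adjusted p = 0.0453). The probe set used here lies, by its number, among probe sets of another chromosome than Cycs, and the one numbered among neighbours of Cycs itself was the dimmest (mean 5.96) and gave 0.62.

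Ndufs4, an accessory subunit of the NADH-oxidising arm of complex I whose loss causes mitochondrial disease, stood apart from the rest of its complex. It was at 9.93, 9.79, 9.86 and 10.25 without and 11.04, 11.09, 10.39 and 10.81 with LPS in wild type, with no overlap, a change of 0.87 ± 0.162 (adjusted p = 0.0003). Cox5a, a nuclear-encoded subunit of complex IV, was at 10.06, 10.35, 9.98 and 9.95 and 10.69, 10.89, 10.47 and 10.31. Its groups overlapped, since unstimulated array 2 lay above LPS array 4, and the change was 0.51 ± 0.13 (adjusted p = 0.00527). Atp5b, the catalytic beta subunit of ATP synthase, was at 11.98, 11.91, 11.90 and 11.999 and 12.14, 12.17, 12.16 and 12.10, a small rise of 0.19 ± 0.0695 (adjusted p = 0.0414) without overlap. That call was lost (adjusted p between 0.0501 and 0.104) when any of the 4 LPS arrays or unstimulated array 2 or 3 was left out. It was also lost without KO LPS array 1, 2 or 3 or unstimulated KO array 2, which enter the shared estimate of the spread. The fit of the 8 wild-type arrays (0.0872) and median centring (0.0938) lost it too.

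**Figure D1:**
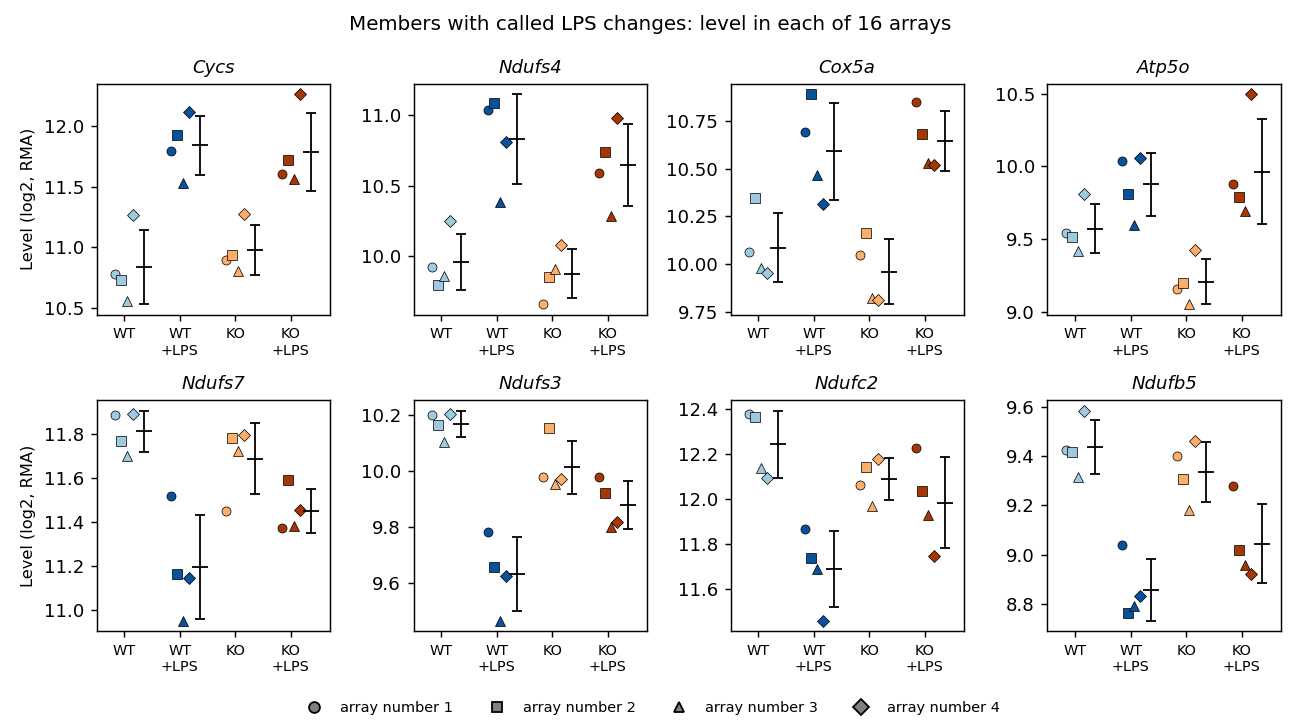
Level (log2, RMA) of 8 members in each of the 16 arrays: points are arrays with the shape giving the number in the title, and the bar beside each group is its mean ± SD over 4 arrays. Cycs, Ndufs4 and Cox5a were higher with LPS in both genotypes, Atp5o was called in KO (log2 change 0.76), and Ndufs7, Ndufs3 and Ndufc2 were called lower in wild type alone, a difference between genotypes that was itself not called for any of them.

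The core subunits of complex I carry its flavin, iron-sulphur clusters and quinone site. All 6 measured had changes below 0 in wild type (median -0.33), and Ndufs7 and Ndufs3 passed the test. Ndufs7, which holds the iron-sulphur cluster next to ubiquinone, was at 11.89, 11.77, 11.70 and 11.89 without and 11.52, 11.17, 10.95 and 11.14 with LPS. The groups did not overlap, LPS array 1 was the least reduced, and the change was -0.62 ± 0.113 (adjusted p = 0.000268). Ndufs3, a core subunit of the peripheral arm, was at 10.20, 10.17, 10.10 and 10.20 and 9.78, 9.66, 9.47 and 9.63, again without overlap, a change of -0.54 ± 0.0847 with the smallest adjusted p of any member (5.91e-05). A second, dimmer Ndufs3 probe set (mean 8.41), numbered among probe sets of another chromosome, gave -0.06 (adjusted p = 0.872 over all probe sets). With the mean of both, Ndufs3 was still called lower. Ndufs1, the largest core subunit, was at 8.50, 8.96, 8.84 and 8.79 and 8.73, 8.86, 8.68 and 8.42, with overlapping groups and a change of -0.10 ± 0.146 (adjusted p = 0.65). Ndufs8 had -0.39, Ndufv2 -0.27 and Ndufv1 -0.22, none of them called.

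Of the 28 accessory subunits, which surround the core and serve its assembly and stability, 8 fell and Ndufs4 rose. Ndufb5, in the membrane arm, was at 9.43, 9.42, 9.32 and 9.58 without and 9.04, 8.76, 8.79 and 8.83 with LPS in wild type. No LPS array reached the unstimulated range, and the change was -0.58 ± 0.0999 (adjusted p = 0.000144). Ndufc2, also of the membrane arm, was at 12.38, 12.36, 12.14 and 12.09 and 11.86, 11.74, 11.69 and 11.46, a change of -0.56 ± 0.113 (adjusted p = 0.00071). Its groups did not overlap either. Ndufb11, encoded on the X chromosome, was at 9.60, 9.52, 9.60 and 10.39 and 9.39, 8.72, 8.98 and 9.54, and Ndufb8 was at 9.54, 9.50, 9.49 and 10.01 and 9.17, 8.78, 8.89 and 9.45. Number 4 was the highest of its group for both genes, and the groups overlapped for Ndufb11. Ndufb11 changed by -0.62 ± 0.229 (adjusted p = 0.0475) and Ndufb8 by -0.56 ± 0.189 (adjusted p = 0.0306). The Ndufb8 call was lost without LPS array 2 (adjusted p = 0.102), LPS array 3 (0.0886) or unstimulated array 4 (0.12). The Ndufb11 call was lost without LPS array 2 (0.157) or 3 (0.119) or unstimulated array 1 (0.0509), 3 (0.0547) or 4 (0.194). It was also lost without unstimulated KO array 1, 2 or 3 or KO LPS array 1 or 2. Median centring (0.0537), testing all probe sets (0.0925) and trend and robust variances (0.0535) lost it too. The other accessory subunits called lower were Ndufv3 (-0.46), Ndufs5 (-0.45), Ndufa8 (-0.39) and Ndufb9 (-0.33). The Ndufs5 call was lost without unstimulated array 1 or 3 or LPS array 2 or 3 (adjusted p between 0.056 and 0.0839), and the Ndufb9 call without unstimulated array 1 or 4 or LPS array 2 or 3 (adjusted p between 0.0667 and 0.0931). Among the 7 assembly factors, Ndufaf7, an arginine methyltransferase that acts on a core subunit, was called lower (-0.31, adjusted p = 0.0473). That call was lost without unstimulated array 2, 3 or 4 or LPS array 2 or 3 (adjusted p between 0.0539 and 0.181), and in the fit of the 8 wild-type arrays (0.0918). With numbers 1 to 3 alone neither Ndufaf7 (0.058) nor Ndufb9 (0.111) was called.

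Complex II is the succinate dehydrogenase of the citric acid cycle, with Sdha binding flavin, Sdhb holding the iron-sulphur clusters, and Sdhc and Sdhd anchoring it in the membrane. Sdha was at 10.59, 10.86, 10.67 and 10.61 without and 10.40, 10.46, 10.14 and 10.21 with LPS in wild type, without overlap, a change of -0.38 ± 0.115 (adjusted p = 0.0149). Sdhb was at 10.13, 10.22, 10.13 and 10.11 and 10.11, 9.92, 9.78 and 9.71, where LPS array 1 came to the edge of the unstimulated range, and changed by -0.27 ± 0.0865 (adjusted p = 0.0223). The anchors Sdhc (-0.15 ± 0.0834, adjusted p = 0.21) and Sdhd (-0.01 ± 0.1, adjusted p = 0.934) were not called. The Sdha call was lost without unstimulated array 2 (adjusted p = 0.058) or LPS array 3 (0.0567), and the Sdhb call without unstimulated array 2 (0.0656), LPS array 3 (0.0749) or LPS array 4 (0.0848). Sdhb was also not called in the fit of the 8 wild-type arrays (0.0634) or with numbers 1 to 3 alone (0.092).

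In complex III, Uqcrh, the hinge protein beside the cytochrome c1 site, was at 10.78, 10.90, 10.76 and 10.53 without and 10.48, 10.43, 9.97 and 9.94 with LPS, with no overlap, and changed by -0.54 ± 0.152 (adjusted p = 0.0106). It was the sole one of 9 members of complex III called in wild type, and Cyc1, the cytochrome c1 haem subunit, was at 9.55, 9.60, 9.64 and 10.01 and 9.89, 9.65, 9.71 and 9.80, a change of 0.07 ± 0.105 (adjusted p = 0.685). Cox5a was the sole called gene of the 10 widely expressed members of complex IV, whose median change was 0.01. In complex V, Atp5b rose and Atp5g2 fell. Atp5g2, which encodes the same mature subunit c of the proton ring as Atp5g1 and Atp5g3, was at 11.52, 11.65, 11.59 and 11.89 and 11.18, 11.03, 10.91 and 11.29, without overlap, a change of -0.56 ± 0.128 (adjusted p = 0.00197). Its probe set numbered among its own chromosomal neighbours gave -0.08 (adjusted p = 0.843), so this call rests on which of its 3 probe sets was read. Cox7a2l, a factor that joins complexes III and IV into supercomplexes and is not a subunit of either, had a change of -0.42 ± 0.114 (adjusted p = 0.00753). Its probe set numbered among its own chromosomal neighbours gave -0.28 (adjusted p = 0.572) and the mean of both gave -0.35 (adjusted p = 0.123), so this call too rests on the probe set read.

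The count of members that fell in wild type, 16, depended on single arrays. Without LPS array 3, which had the lowest median member level of all 16 arrays, it was 9. It was 11 without LPS array 2 and 13 without unstimulated array 1, 2, 3 or 4. Markers of macrophages moved with LPS too. Of the 8, 1 was called higher and 3 lower with LPS in wild type, and 3 higher and 2 lower in KO. The mean of the 8 markers ran from 12.32 to 12.40 in unstimulated wild-type arrays and from 12.02 to 12.15 with LPS, and from 12.03 to 12.18 in unstimulated KO arrays and 12.21 to 12.23 with LPS. Their median change was -0.20 in wild type and -0.11 in KO, so in KO the mean and the median of the markers went opposite ways. The 6 stroma markers had array means from 6.89 to 7.26 without and 7.78 to 7.95 with LPS in wild type, and from 7.04 to 7.34 and 7.63 to 7.81 in KO. Of these 6, Pdgfrb alone was called higher, in both genotypes (log2 change 3.88, adjusted p = 1.23e-12, and 3.16, adjusted p = 2.3e-11). The part of either list in these results was not tested.

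**Figure D2:**
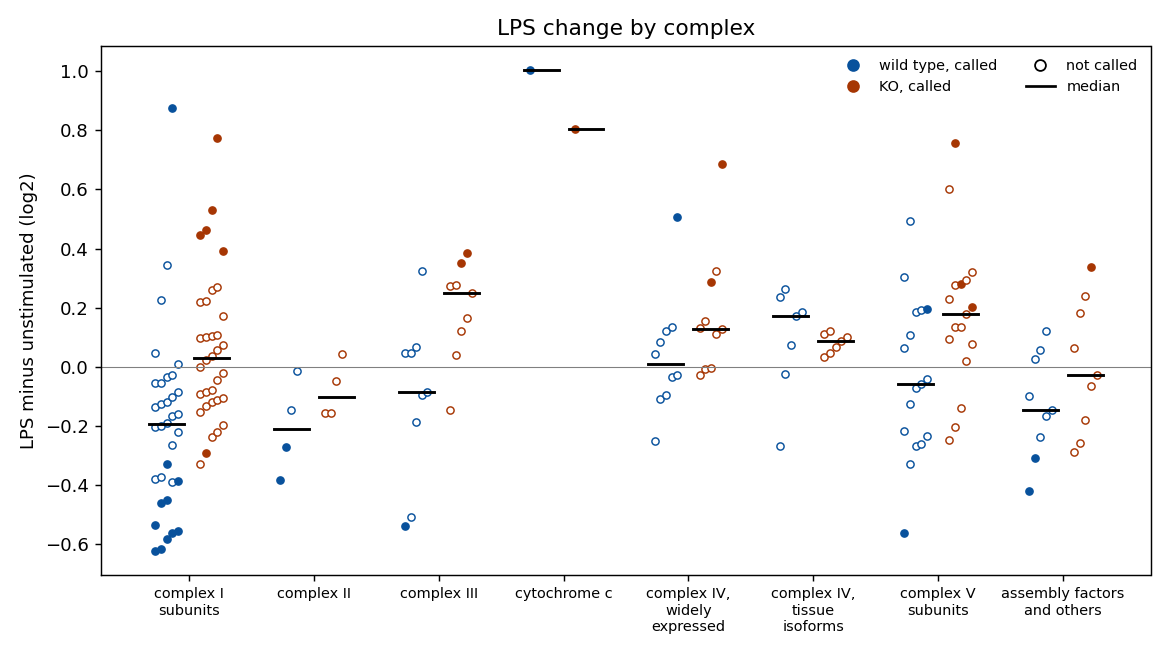
LPS minus unstimulated log2 change of the 91 members grouped by complex, wild type in blue and KO in orange. Filled points passed the test in that genotype, and black lines are medians: for complex I subunits the median was -0.19 in wild type and 0.03 in KO, and for complex III -0.08 and 0.25.

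In NFAT5 KO macrophages the balance was the other way: LPS raised 14 of 91 members and lowered 1, against a background over all genes of 12% called higher and 12.7% called lower. The genes that rose came from complexes I, III, IV and V and cytochrome c, led by Cycs (1.75-fold), Ndufs4, Atp5o (1.69-fold) and Cox5a, and none came from complex II. The median member changed by 0.10, against 0.01 over all genes, and 61 of 91 members (67%) lay above 0, against 52.1% of all genes. The share of members called higher, 14 of 91, is somewhat above that over all genes, and the share called lower is well below it.

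The 4 genes that rose in wild type were all among the 14 that rose in KO (100% of the wild-type list and 28.6% of the KO list). These comparisons contrast different arrays but come from 1 fit with a shared estimate of the spread, so the 2 lists are not independent. Over all genes, 1891 of the 2786 called higher in wild type were also called higher in KO (67.9%, and 79% of the KO list). Of the 16 that fell in wild type, Ndufb5 was called lower in KO (6.25%), against 2247 of 3346 over all genes (67.2%), and neither gap in shares was tested. Cycs was at 10.89, 10.94, 10.81 and 11.27 without and 11.60, 11.72, 11.56 and 12.26 with LPS in KO, without overlap, and rose by 0.81 ± 0.172 (adjusted p = 0.00146). Its probe set among its own chromosomal neighbours gave 0.31 there (adjusted p = 0.328 in the fit that reads that probe set), and the third probe set gave 1.20 (adjusted p = 1.64e-05 over all probe sets). Ndufs4 was at 9.66, 9.85, 9.91 and 10.08 and 10.59, 10.74, 10.28 and 10.98 and rose by 0.77 ± 0.162 (adjusted p = 0.00121). Cox5a was at 10.05, 10.16, 9.82 and 9.81 and 10.85, 10.68, 10.53 and 10.52 and rose by 0.69 ± 0.13 (adjusted p = 0.000507). Neither gene's groups overlapped in KO. Atp5b was at 11.95, 11.98, 11.85 and 11.88 and 12.14, 12.14, 12.11 and 12.08, also without overlap, and rose by 0.20 ± 0.0695 (adjusted p = 0.0393), a call lost without LPS array 1, 2 or 3 or unstimulated array 3 or 4 (adjusted p between 0.0734 and 0.108). The call was also lost in the fit of the 8 KO arrays (0.112) and with numbers 1 to 3 alone (0.0676).

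Atp5o, the subunit of the stalk that ties the catalytic head of ATP synthase to its membrane part, was at 9.16, 9.20, 9.05 and 9.42 without and 9.88, 9.79, 9.69 and 10.50 with LPS in KO. Every LPS array lay above every unstimulated array, number 4 was the highest in both groups, and the change was 0.76 ± 0.154 (adjusted p = 0.000973). In wild type it was at 9.54, 9.51, 9.42 and 9.81 and 10.04, 9.81, 9.59 and 10.06, with overlapping groups and a change of 0.30 ± 0.154 (adjusted p = 0.158). Atp5g3, a gene for subunit c, was at 10.70, 10.63, 10.54 and 10.60 and 11.07, 10.77, 10.89 and 10.86 in KO, with no overlap, and rose by 0.28 ± 0.0808 (adjusted p = 0.0143), a call lost without LPS array 1 (adjusted p = 0.0624) and in the fit of the 8 KO arrays (0.0524).

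Of complex I, 5 accessory subunits rose in KO. Beside Ndufs4 these were Ndufc1, Ndufb6 and Ndufa1 of the membrane arm and Ndufa2 of the peripheral arm. Ndufc1 was at 8.64, 8.97, 8.58 and 8.81 without and 9.31, 9.15, 9.13 and 9.53 with LPS, without overlap, a rise of 0.53 ± 0.147 (adjusted p = 0.0111), and its probe set among its own chromosomal neighbours gave 0.42 (adjusted p = 0.326). Ndufb6 was at 9.72, 9.75, 9.66 and 9.96 and 10.48, 10.17, 10 and 10.29 and rose by 0.46 ± 0.144 (adjusted p = 0.0225). Ndufa1, which is X-linked, was at 7.77, 8.18, 7.99 and 7.81 and 8.64, 8.21, 8.23 and 8.44 and rose by 0.44 ± 0.122 (adjusted p = 0.0105). Ndufa2 was at 8.99, 9.38, 9.28 and 8.96 and 9.55, 9.64, 9.50 and 9.49 and rose by 0.39 ± 0.124 (adjusted p = 0.0257). None of these 4 overlapped between the KO groups, and in wild type the same genes had changes of -0.03, 0.34, 0.23 and -0.05, in that order, none called. The Ndufb6 call was lost without LPS array 1 (adjusted p = 0.0851) or 4 (0.0512) or unstimulated array 1 (0.0516), 2 (0.05) or 3 (0.0652), and the Ndufa2 call without LPS array 1 (0.0521) or 2 (0.0747) or unstimulated array 1 (0.0794) or 4 (0.0879). With numbers 1 to 3 alone Ndufc1 (0.0581), Ndufa1 (0.081) and Ndufa2 (0.119) were not called.

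Ndufb5, called lower in both genotypes, was the sole member called lower in KO. It was at 9.40, 9.31, 9.18 and 9.46 without and 9.28, 9.02, 8.96 and 8.92 with LPS, with LPS array 1 inside the unstimulated range, and changed by -0.29 ± 0.0999 (adjusted p = 0.0386). The call was lost when any of 6 of the 8 KO arrays was left out, LPS arrays 2, 3 and 4 and unstimulated arrays 1, 2 and 4 (adjusted p between 0.0618 and 0.11). It was also lost in the fit of the 8 KO arrays (0.0777) and with numbers 1 to 3 alone (0.21). Of the core subunits of complex I none was called in KO: Ndufs7 was at 11.45, 11.78, 11.72 and 11.80 and 11.37, 11.59, 11.38 and 11.46 (-0.24 ± 0.113, adjusted p = 0.156), and Ndufs3 at 9.98, 10.15, 9.95 and 9.97 and 9.98, 9.92, 9.80 and 9.82 (-0.13 ± 0.0847, adjusted p = 0.326). The groups overlapped for both genes. Ndufs1 had 0.10 ± 0.146 (adjusted p = 0.735).

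None of the 4 subunits of complex II was called in KO. Sdha was at 10.59, 10.71, 10.74 and 10.33 without and 10.53, 10.52, 10.52 and 10.16 with LPS (-0.16 ± 0.115, adjusted p = 0.416) and Sdhb at 10.04, 10.16, 10.14 and 10.10 and 10.12, 10.10, 10.02 and 10.01 (-0.05 ± 0.0865, adjusted p = 0.802), with overlap in both. Sdhc had 0.04 and Sdhd -0.16. In complex III the ubiquinone-binding subunit Uqcrq (0.39 ± 0.126, adjusted p = 0.0295) and the Rieske iron-sulphur protein Uqcrfs1 (0.35 ± 0.121, adjusted p = 0.0408) rose. The Uqcrq call was lost without unstimulated array 1 or 3 or LPS array 1 or 4 (adjusted p between 0.0738 and 0.0967), and the Uqcrfs1 call without unstimulated array 1, 3 or 4 or LPS array 1, 2 or 3 (adjusted p between 0.0565 and 0.121) and in the fit of the 8 KO arrays (0.0571). Cyc1 had 0.25 ± 0.105 (adjusted p = 0.103), and Uqcrh was at 10.38, 10.63, 10.24 and 10.03 and 10.67, 10.38, 10.13 and 10.25, a change of 0.04 ± 0.152 (adjusted p = 0.919). In complex IV, Cox6a1 rose with Cox5a (0.29 ± 0.0991, adjusted p = 0.0402), a call lost without LPS array 1 (adjusted p = 0.115) or 4 (0.117) or unstimulated array 1 (0.127) or 3 (0.0985). The Cox6a1 call was also lost in the fit of the 8 KO arrays (0.0814) and with numbers 1 to 3 alone (0.078). The assembly factor Ndufaf3 rose by 0.34 ± 0.116 (adjusted p = 0.039), a call lost without unstimulated array 1 or 4 or LPS array 1, 2 or 4 (adjusted p between 0.0547 and 0.138) and with numbers 1 to 3 alone (0.0805).

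The number of members that rose in KO depended on single arrays: it was 6 without LPS array 1, 8 without unstimulated array 1 and 9 without unstimulated array 3, in place of 14. With the arrays numbered 1 to 3 alone it was 9, of which 8 were among the 14, and with the 10 arrays in which Xist lay above Kdm5d, which leave 1 KO array per treatment, it was 1 (Atp5o).

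**Figure D3:**
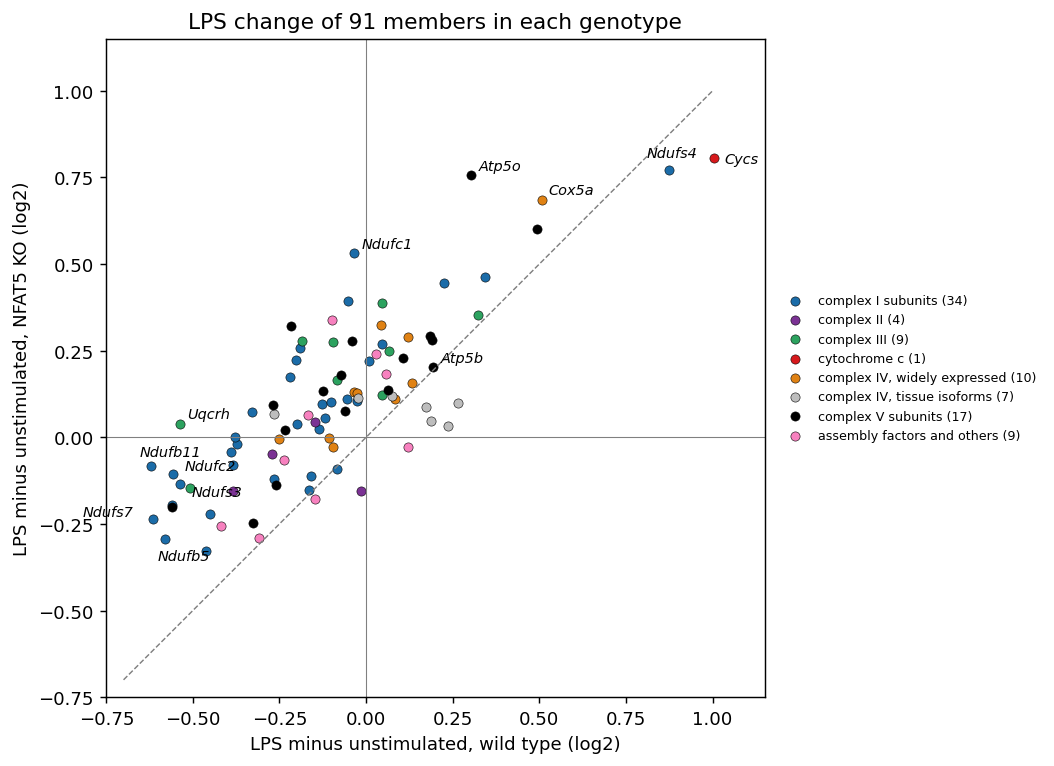
LPS minus unstimulated log2 change of each of the 91 members in wild type (horizontal) and in NFAT5 KO (vertical), coloured by complex, with the dashed line where both are equal. Of the 91 points, 81 lie above the dashed line, and Cycs (1.004 in wild type, 0.81 in KO) and Ndufs4 (0.87 and 0.77) lie farthest to the upper right.

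Comparing the genotypes directly, no single member was called in the fit without a block for the array number. Calls with that block are given below. Without LPS, 0 of 91 members were higher and 0 lower in KO, against 0.14% and 0.863% of all genes (limma). At an unadjusted p below 0.05, 0 members were higher and 5 lower, against 616 and 946 of the 19937 genes. With LPS, 0 were higher and 0 lower, against 1.8% and 1.26% of all genes. At an unadjusted p below 0.05, 11 members were higher and 0 lower, against 1328 and 934 of the 19937 genes. The difference between the 2 LPS responses was called for 0 members in either direction, against 0.988% and 0.301% of all genes. At an unadjusted p below 0.05, 13 members were higher and 0 lower, against 1372 and 672 of the 19937 genes. limma with a mean trend and robust variances, also without the block, gave 0 calls in all 3 comparisons as well. These counts do not show that the genotypes are alike, since 4 arrays a group leave wide 95% intervals for the differences, as given next for single members.

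The members leaned one way in these comparisons, without a test of the lean. Without LPS 22 of 91 members (24.2%) lay above 0, with a median of -0.07, against 51.3% and 0.00 over all genes. With LPS 76 of 91 (83.5%) lay above 0, with a median of 0.14, against 46.6% and -0.01. For the difference in response 81 of 91 (89%) lay above 0, with a median of 0.19, against 45.9% and -0.02, and within it all 9 members of complex III, all 17 of complex V and 32 of 34 subunits of complex I did. The lean was also seen outside the members: of 37 assembly factors outside the rule 30 (81.1%) lay above 0 in the difference in response, with a median of 0.18, and of the 8 macrophage markers 7 did, with a median of 0.25 and 1 called. For the macrophage markers 2 of 8 lay above 0 without LPS and 6 of 8 with LPS. Other lists showed the lean in response more weakly or not at all: 13 of 21 biogenesis regulators (61.9%, median 0.05) and 3 of 7 complex IV tissue isoforms (42.9%, median -0.08) lay above 0. So did 1 of 5 T cell, 1 of 5 B cell, 1 of 8 granulocyte and 1 of 6 stroma markers, and at most 1 in each other marker list. These marker lists had lower array means than the macrophage markers, and whether the lean follows signal level was not tested. Members are measured on the same arrays and are not replicates of each other, and the 3 comparisons share arrays.

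Ndufs3 had the smallest adjusted p in the difference in response: its change in KO exceeded that in wild type by 0.40 ± 0.12 (95% interval 0.15 to 0.65, adjusted p = 0.134). The second probe set of Ndufs3 changed by -0.06 in wild type and -0.03 in KO. With LPS the probe set read here was higher in KO than in wild type by 0.25 ± 0.0847, and the 4 KO arrays lay above the 4 wild-type arrays, but the adjusted p was 0.167. Ndufs7 differed in response by 0.38 ± 0.159 (95% interval 0.04 to 0.71, adjusted p = 0.388) and Ndufc2 by 0.45 ± 0.159 (95% interval 0.12 to 0.79, adjusted p = 0.247). Uqcrh had the largest difference of any member, 0.58 ± 0.216 (95% interval 0.12 to 1.03, adjusted p = 0.29), and part of it came from the unstimulated cells, where KO was at -0.42 ± 0.152 relative to wild type (adjusted p = 0.373). For the shared risers the difference in response was near 0: -0.20 for Cycs (95% interval -0.71 to 0.31), -0.10 for Ndufs4 (-0.58 to 0.38), 0.18 for Cox5a (-0.21 to 0.57) and 0.01 for Atp5b (-0.20 to 0.22).

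Arrays with the same number deviated together across the genotypes, and with the number as a block 1 member passed in each of 3 comparisons. Uqcrh was lower in KO without LPS (-0.42, adjusted p = 0.0435 with the block), and Ndufb11 was higher in KO with LPS (0.43, adjusted p = 0.0461). The difference in response of Uqcrh, KO minus wild type, was 0.58 (adjusted p = 0.045). It fell with LPS in wild type (-0.54) and hardly changed in KO (0.04). With a term for sex in place of the block, Cox6b2 was called higher in KO without LPS, and Atp5g2, Cox6b2, Cox7b, Ndufb8 and Uqcr10 with LPS. That term is estimated solely from KO number 4 against KO numbers 1 to 3, so these calls rest on the number 4 arrays of KO. Cox6b2 was at 6.7, 6.84, 6.62 and 7.29 in unstimulated KO arrays 1 to 4 and at 6.84, 6.78, 6.77 and 6.89 in wild type. With sex and block together no member was called in any of these comparisons.

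**Figure D4:**
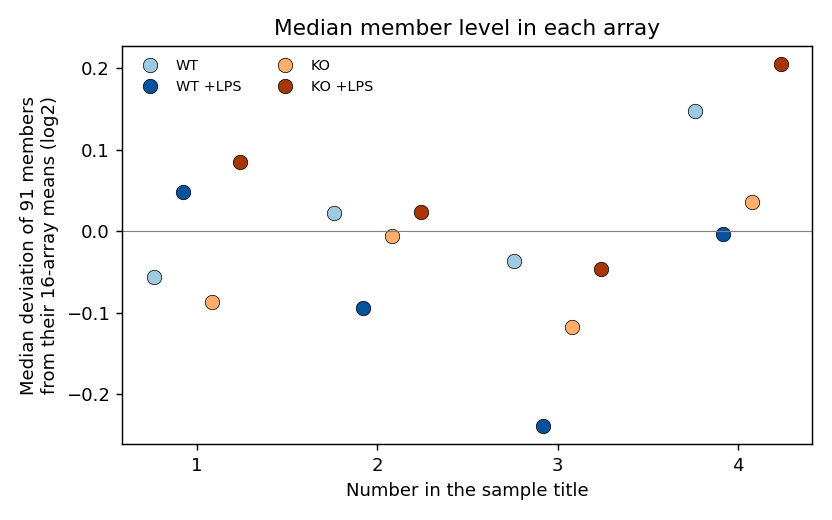
Median deviation of the 91 members from their own 16-array means (log2), by the number in the sample title and coloured by group. Number 4 held the highest values of unstimulated wild type (0.147) and of KO with LPS (0.205), and wild-type LPS array 3 was the lowest of all (-0.239).

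The median member level varied between arrays of the same group. Among unstimulated wild-type arrays it ran from -0.056 in number 1 to 0.147 in number 4 relative to the 16-array means, and with LPS from -0.239 in number 3 to 0.048 in number 1. In KO it ran from -0.118 to 0.036 without LPS and from -0.046 to 0.205 with LPS. The LPS and unstimulated ranges overlapped in both genotypes. The median over all genes stayed between -0.063 and 0.034 in the same arrays.

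Several complex IV and V subunits exist as isoforms with different tissue use. Cox4i1, the common isoform of subunit 4, had -0.10 ± 0.144 in wild type and -0.03 ± 0.144 in KO, and Cox4i2, the isoform of lung and of low oxygen, had 0.26 ± 0.119 and 0.10 ± 0.119. Cox6a1, the widely expressed form, had 0.12 and 0.29, and the heart and muscle form Cox6a2 had 0.24 and 0.03. For subunit 7a the muscle form Cox7a1 had -0.27 and 0.07 and the common form Cox7a2 0.08 and 0.11. For subunit 8 the common Cox8a had -0.03 and 0.13 and the muscle form Cox8b 0.19 and 0.05. Of these values only Cox6a1 in KO was called, and none of the 7 tissue isoforms was called in any of the 5 comparisons. The tissue isoforms had means from 4.65 (Cox7b2) to 8.16 (Cox6a2), around the array medians of 6.76 to 6.86. No background call was made, so whether they were expressed was not tested. The 3 genes for subunit c of ATP synthase parted: in wild type Atp5g1 had -0.22 ± 0.152, Atp5g2 -0.56 ± 0.128 and Atp5g3 0.19 ± 0.0808, and in KO 0.32, -0.20 and 0.28. The calls among these were the fall of Atp5g2 in wild type and the rise of Atp5g3 in KO. The Atp5g2 probe set numbered among its own chromosomal neighbours gave -0.08 in wild type, so its place among the 3 rests on the probe set read.

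Genes that regulate, assemble or accompany the respiratory chain were read from lists of names outside the rule. Of 21 regulators of mitochondrial biogenesis, 7 rose and 4 fell with LPS in wild type, and 8 rose and 2 fell in KO. Over all genes 14% were called higher and 16.8% lower in wild type, and 12% and 12.7% in KO. Pprc1, a coactivator of the PGC-1 family, rose by 1.18 ± 0.157 and 1.22 ± 0.157 (adjusted p = 8.68e-06 and 7.31e-06). Nrf1, whose motif is given above, rose in wild type by 0.34 ± 0.106 (adjusted p = 0.0212) and had 0.28 in KO (adjusted p = 0.0682). Tfam, the packaging factor of mitochondrial DNA, had -0.28 and 0.17, and Ppargc1b, a coactivator of oxidative genes in macrophages, -0.01 and 0.30, with no call. Hif1a, which drives glycolysis and an isoform switch in complex IV under low oxygen, rose from 10.64 ± 0.0965 to 12.16 ± 0.248 (SD, n = 4) in wild type and from 10.49 ± 0.201 to 11.66 ± 0.155 in KO. With LPS it was lower in KO by 0.50 on the log2 scale (adjusted p = 0.0344), and the groups did not overlap.

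Of 37 measured assembly factors outside the rule (of 39 listed), 6 rose and 7 fell in wild type, and 5 rose and 3 fell in KO. The shares over all genes were 14% higher and 16.8% lower in wild type and 12% and 12.7% in KO, so most of these counts are near background. Tmem126b, which assembles the membrane arm of complex I, fell by 1.10 in wild type and 0.65 in KO on the log2 scale, and Bcs1l, which inserts the Rieske protein into complex III, fell by 0.96 and 0.67. Cox17, a copper chaperone for complex IV, rose by 0.94 and 0.62, and Cox18, which inserts a complex IV subunit into the membrane, by 0.74 and 1.09. Surf1, an assembly factor of complex IV, was called lower in wild type (-0.71 ± 0.116, adjusted p = 9.21e-05) and had -0.18 ± 0.116 in KO (adjusted p = 0.323). No assembly factor was called between genotypes or for the difference in response, which for Surf1 was 0.52 (95% interval 0.17 to 0.87, adjusted p = 0.169). Of the 13 respiratory chain genes of mitochondrial DNA, ND3 and COX2 were measured: ND3 fell in wild type (-0.23 ± 0.083, adjusted p = 0.0414) and the other values, -0.09 for ND3 in KO and -0.19 and -0.21 for COX2, were not called.

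The largest change around complex IV lay outside the rule, in AA467197 (also called Nmes1), a paralog of Ndufa4 whose product can take the place of the Ndufa4 protein in complex IV in inflamed cells. AA467197 was at 5.94, 5.95, 5.96 and 5.91 in unstimulated wild-type arrays and at 10.09, 10.40, 8.53 and 8.89 with LPS, a rise of 3.53 ± 0.296 (adjusted p = 2.51e-08). In KO it was at 5.35, 5.73, 5.58 and 5.58 and 7.69, 7.91, 7.16 and 7.23, a rise of 1.94 ± 0.296 (adjusted p = 5.18e-05). The unstimulated levels lay within the 4.92 to 6.63 spanned by marker lists of other cell types, and no background call was made, so no fold is given for these rises. No groups overlapped, and with LPS arrays 1 and 2 were higher than arrays 3 and 4 in both genotypes. With LPS it was 3.94-fold lower in KO than in wild type (log2 difference -1.98 ± 0.296, adjusted p = 0.000784), while the difference in response, -1.60 ± 0.418 (95% interval -2.48 to -0.72), had an adjusted p of 0.0752 and was not called. Ndufa4 itself was at 9.72, 9.97, 9.65 and 9.29 and 10.15, 9.93, 9.47 and 9.26 in wild type and at 9.59, 9.77, 9.62 and 9.16 and 10.18, 9.98, 9.80 and 9.48 in KO. All 4 groups overlapped, number 4 was the lowest in each, and the LPS changes were 0.04 ± 0.196 (adjusted p = 0.893) and 0.32 ± 0.196 (adjusted p = 0.3).

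Atpif1, the inhibitor that stops ATP synthase from running backwards, fell in both genotypes. It was at 12.32, 12.26, 12.21 and 12.04 without and 11.58, 11.10, 11.28 and 11.35 with LPS in wild type (-0.88 ± 0.118, adjusted p = 9.17e-06) and at 12.25, 12.25, 11.94 and 11.94 and 11.89, 11.52, 11.69 and 11.86 in KO (-0.36 ± 0.118, adjusted p = 0.0322). The groups did not overlap in either genotype, and the difference in response, 0.52 (95% interval 0.17 to 0.87), was not called (adjusted p = 0.176). Of the 11 measured paralogs and partners that also hold AA467197 and Atpif1, 2 rose and 5 fell in wild type and 1 rose and 1 fell in KO.

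**Figure D5:**
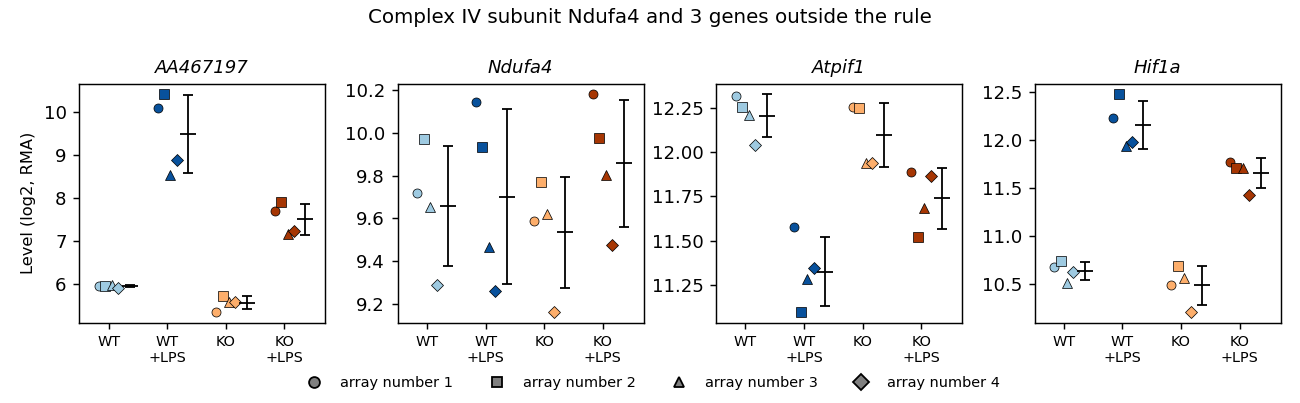
Level (log2, RMA) of Ndufa4, its paralog AA467197, the ATP synthase inhibitor Atpif1 and Hif1a in each of the 16 arrays, with the mean ± SD over 4 arrays beside each group. AA467197 rose by 3.53 on the log2 scale in wild type and 1.94 in KO while the Ndufa4 groups overlapped.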

How the data were processed

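Affymetrix Mouse Gene 1.0 ST arrays measured 34760 probe sets in 16 samples, 4 in each group. The authors deposited log2 values made by RMA, per the submitters' processing notes, with no version named there. The platform annotation gave 1 gene for 21640 probe sets, several for 1321, and 11799 were not listed. For 19937 genes the brightest probe set by mean was kept, with no filter on low values. The members and the other gene lists were chosen with earlier results of these data known. All 91 members were found by gene ID in RefSeq (GRCm38.p6), with 0 symbols changed.

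limma 3.58.1 in R 4.3.3 fitted 1 mean per group over all 16 arrays (lmFit and eBayes, 12 residual degrees of freedom), with 5 contrasts and Benjamini-Hochberg adjustment over all genes at 0.05. The script was tested on simulated data. Genes named are, per contrast, the 8 called members with the largest rise and the 8 with the largest fall, the isoform pairs, and Ndufa4, Cycs, Cyc1, Sdha to Sdhd, Ndufs1, Ndufs4 and Atp5b. Outside the rule they are up to 4 called genes per list with AA467197, Ppargc1b, Tfam, Nrf1 and Hif1a. Other members are named where a count or comparison turns on them, and were then chosen after their values were seen.

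Deviations of same-numbered arrays from their group means correlated between genotypes at 0.16 to 0.442 without LPS and 0.186 to 0.518 with LPS, above 0.1 for all 4 numbers, so the numbers were taken to pair genotypes, and a block for the number is given beside those comparisons. No duplicate arrays were found (r from 0.967 to 0.994 between arrays of a group). For 12 members the brightest probe set is numbered among probe sets of another chromosome, read from 10 neighbours on each side, a rule that matched the gene's own chromosome for 97.2% of 21553 probe sets. The number of arrays limits the precision. Alternatives were the replicate block, a sex term, array numbers 1 to 3, each comparison's own 8 arrays, median centring, a filter on dim probe sets, the mean of or all probe sets, eBayes with trend and robust variances, and leaving out each array. Unless stated, calls of single genes lost without an array are given for arrays of their own comparison. Arrays of the other genotype also enter the shared estimate of the spread. The probe set numbered among a gene's own neighbours, the 10 arrays with Xist above Kdm5d, and sex with block were added after seeing the data.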

Additional observations from a re-analysis of the deposited data

Results flagged for a closer look

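In 12 of 156 groups of 4 arrays (39 named members in 4 groups) the highest or lowest array stood apart from the other three by more than Dixon's 95% critical value for 4, and chance alone does so in about 1 in 20 groups. In unstimulated wild type these were Ndufb11 at 10.39 in number 4 (nearest 9.60), Ndufb8 at 10.01 in number 4 (nearest 9.54) and Ndufa2 at 9.57 in number 1 (nearest 9.39). In wild type with LPS they were Cox7a1 at 6.86 in number 3 (nearest 7.29) and Cox8b at 6.29 in number 4 (nearest 6.64). In unstimulated KO they were Cox4i1 at 10.59 in number 4 (nearest 10.20), Ndufs1 at 8.42 in number 4 (nearest 8.84), Ndufs3 at 10.15 in number 2 (nearest 9.98), Cox7a1 at 7.69 in number 3 (nearest 7.53) and Sdhd at 9.64 in number 3 (nearest 9.45). In KO with LPS they were Atp5g1 at 11.34 in number 4 (nearest 10.82) and Sdha at 10.16 in number 4 (nearest 10.52). For the difference between the genotypes in the LPS response, no member passed the test without the replicate block, and Uqcrh passed with it (0.58, adjusted p = 0.045).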

How the results depend on the processing

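Of 26 called values of named members, 0 changed direction under 28 alternatives (12 of them not leaving out a single array). The replicate block, the sex term, both together and each comparison's own 8 arrays leave these LPS estimates unchanged. So do the dim filter, all probe sets tested and eBayes with trend and robust variances. These settings move only errors and adjusted p, so they could not reverse a direction. Leaving out an array was read here for each comparison's own arrays. With the replicate block, the sex term, both together or the filter on dim probe sets (80 members kept) 0 of the 26 lost the call. Calls lost were 13 with the 10 arrays with Xist above Kdm5d, 7 with numbers 1 to 3, 6 with each comparison's own 8 arrays, 4 with all probe sets tested, 3 with median centring (which shifts the 5 contrasts by -0.0673 to 0.0343), 3 with the probe set among own neighbours, 2 with trend and robust variances and 1 with the mean of all probe sets.

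Counts of members moved as follows. In wild type, LPS raised 8 members with the replicate block, 8 with block and sex and 7 with numbers 1 to 3, in place of 4, and 3 to 5 with any 1 array left out. The count lowered, 16, was 24 with the block, 13 to 17 under the other settings without block, and 9 to 17 with 1 array left out. In KO the count raised, 14, was 9 with numbers 1 to 3, 1 with the 10 arrays, 17 with the block, and 6 to 16 with 1 array left out. The count lowered in KO, 1, was 4 with the block, 4 with block and sex, 3 with the sex term, 2 with the dim filter, and 0 with the 8 arrays, median centring, all probe sets, trend and robust variances or the 10 arrays, and 0 to 2 with 1 array left out. Between genotypes the 0 calls became 1 higher without LPS with the sex term, 1 lower without LPS with the block, and with LPS 1 higher with the block and 5 with the sex term. The difference in response had 1 higher with the block. With 1 array left out all genotype and difference counts were 0 to 0. The cause of these moves was not tested. In the LPS comparisons same-numbered arrays correlated at 0.0454 to 0.429 in wild type and -0.0602 to 0.558 in KO, so the numbers were not taken to pair them.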
